A study of Drosophila melanogaster with 4 samples.

Results

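The genes described are 10 enzymes of glycolysis in the fruit fly, chosen by name from the pathway: Pgi, Pfk, Ald1, Tpi, Gapdh1, Gapdh2, Pgk, Pglym78, Eno and PyK. Of these, 8 had at least 1 cDNA clone on the array (11 clones in all), and 7 had a clone with a value on at least 1 of the 4 arrays (8 clones). Over the whole array, 6347 clones had such a value, and those with a gene name stood for 3769 genes. Gapdh2 and PyK were not the single named gene of any spot in the probe annotation. Pglym78 had a clone without a value on any array, and so had a second clone each of Ald1 and Tpi.

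Glycolysis splits glucose into pyruvate in the cytosol and yields ATP and NADH. In its early steps glucose phosphate is isomerised, phosphorylated again and cut into triose phosphates, and in its later steps the trioses are oxidised and ATP is made. In the fly head the pathway is known for feeding muscle and glia, and glia are known to pass its products on to neurons.

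Heads of unmated Oregon-R males were compared after feeding of ethosuximide, a drug against absence seizures that blocks T-type calcium channels. Flies aged 10 to 11 days, at 30 per vial, received 3.48 mg/ml of the drug for 3 days, and control flies of the same strain, sex and age stayed on normal food. Each of the 4 arrays set a pool of drug-fed heads against a separate pool of control heads, so an array was 1 replicate. The p values rest on the spread between these 4 pairs of pools. In the main test the spread of each clone is drawn towards that typical of all clones fitted. Drug samples carried Cy5 on arrays 1 and 2 and Cy3 on arrays 3 and 4. Whole heads hold many cell types, and fewer cells of a type cannot be told apart from less RNA per cell.

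Every value is a log2 ratio of the authors, averaged over the 2 neighbouring spots of a clone. Columns did not sit at 0 when deposited. Across the 980 clones measured on at least 3 arrays, called tested features here, their medians were 0.74, 0.16, 0.24 and 0.63 on arrays 1 to 4 as deposited. Each array was therefore centred on that median, and a centred ratio of 0 means that a clone behaved like the typical tested feature of its array. Ratios were read as Cy5 over Cy3 and turned on arrays 3 and 4, so that a positive ratio means more signal from drug-fed heads. The labels do not state the numerator, so all signs would change places if it were Cy3. They also do not state whether the swapped columns had been turned before deposit, and values without turning are given beside the others. With turning, centred ratios of tested features correlated at 0.525 (Pearson) between arrays 1 and 2 and at 0.42 between arrays 3 and 4. Between arrays of opposite labelling the correlations were 0.051 to 0.238, and without turning they would be as large and negative. Which reading holds was not tested. The main fit holds no dye term and takes the 4 arrays as independent. Two-colour ratios hold no expression levels, so the enzymes were not ranked by abundance, and the head markers could be checked only for having a value. Genes with a value numbered 8 of the 9 photoreceptor genes on the array, 4 of 4 neuronal, 3 of 5 glial, 4 of 5 fat body and 6 of 10 muscle genes. Over the whole array 45.9% of clones had a value on at least 1 array. The glial and muscle counts therefore set these genes little apart.

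Glycolytic clones passed the authors' spot filters often. A value on at least 3 arrays was present for 6 of 11 glycolytic clones (54.5%), against 7.1% of all 13824 clones. On all 4 arrays the share was 45.5% against 2.6%. Array 4, the sparsest, held values for 5 glycolytic clones and for 5.9% of all clones.

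No glycolytic enzyme passed the test for a difference between drug-fed and control heads. The 6 tested clones, of 5 genes, had mean centred log2 ratios between -0.11 for a Gapdh1 clone and 0.21 for Tpi, with 4 above 0 and 2 below. In limma's moderated test, with Benjamini-Hochberg adjustment over all 980 features, 0 of the 6 reached an adjusted p under 0.05, and none had a raw p below that value. Over all tested features 14 passed, which is 1.43%, and 119 had a raw p below 0.05. The adjusted p of the glycolytic clones lay between 0.673 and 0.998. Their median ratio was 0.014, beside 0.0037 for all tested features. Their median absolute mean was 0.045, beside 0.14 for all, and with no column turned it was 0.144, beside 0.128 for all. The unmoderated test, which uses each clone's own spread, passed 0 of the 980 features and therefore 0 of the 6.

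**Figure D1:**
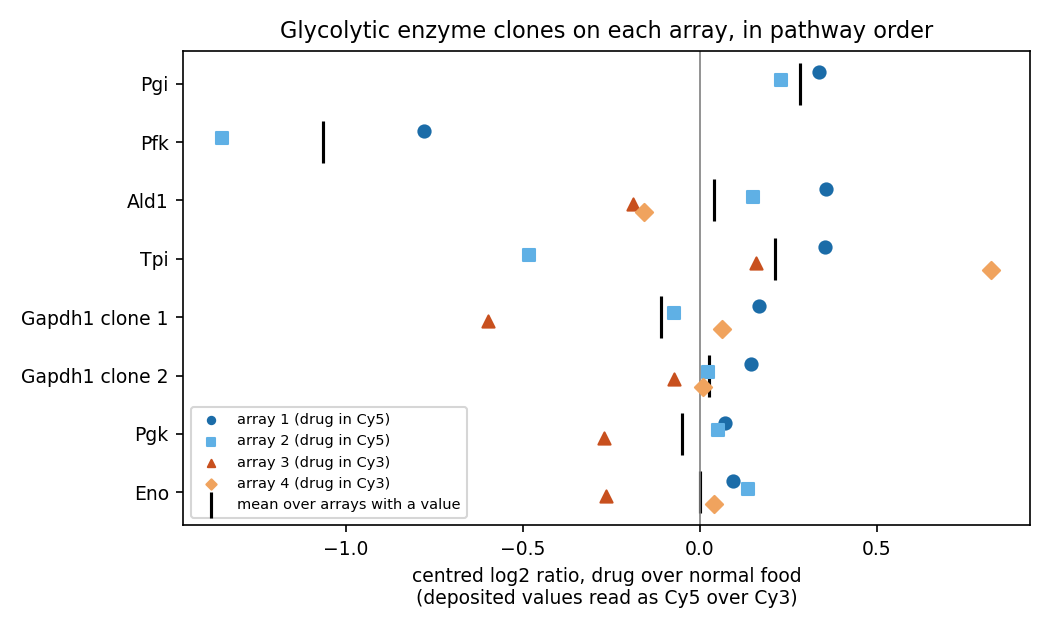
Centred log2 ratios of the 8 glycolytic clones with a value, in pathway order from top to bottom, with 1 point per array and a black tick for the mean over the arrays with a value. The points of Ald1 on arrays 3 and 4 lie below 0 and those on arrays 1 and 2 above 0, the points of Pfk lie far to the left, and those of the second Gapdh1 clone lie close together.

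The early steps were covered by 4 enzymes. Pgi, which isomerises glucose phosphate to fructose phosphate, had centred ratios of 0.34 on array 1 and 0.23 on array 2. It had no value on arrays 3 and 4. Its mean was 0.28 ± 0.075 (SD, n = 2), above that of 90.2% of the 2116 clones measured on both arrays. Among the 1242 clones measured on these arrays alone it was above 93.2%. Without centring its mean was 0.73. With 2 arrays Pgi was outside the test.

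Pfk, the phosphofructokinase whose step commits sugar to glycolysis and is its main point of control, stood farthest from 0. Its centred ratios were -0.78 on array 1 and -1.35 on array 2, with no value on arrays 3 and 4. The mean was -1.06 ± 0.40 (SD, n = 2), which is a ratio of 0.478 on a linear scale. Both values were negative, opposite in sign to those of Pgi on the same arrays. Of the 2116 clones measured on both arrays 21 had a lower mean (0.99%), while the median of these clones was -0.077. Like Pfk, 1242 of them had values on these arrays alone. In that set 20 had a lower mean (1.61%), and the median was -0.119.

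The value of Pfk rests on few and uneven spots. As deposited, before centring, its spots read 0.134 and -0.208 on array 1 and -1.538 and -0.844 on array 2. On array 2 the spots were 0.694 apart, and 8.86% of clones on that array were at least as far apart. On array 1 the gap was 0.342, a distance reached by 36.5% of clones. Without centring the mean of Pfk was -0.61. A wider limma fit took in all 2484 features with 2 or more arrays. There Pfk had a mean of -1.002 with an unadjusted p of 0.00405 and did not pass (limma adjusted p = 0.244), while 12 features did, which is 0.483%. Both arrays carried the drug sample in Cy5, so for Pfk and Pgi drug and dye cannot be told apart.

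**Figure D2:**
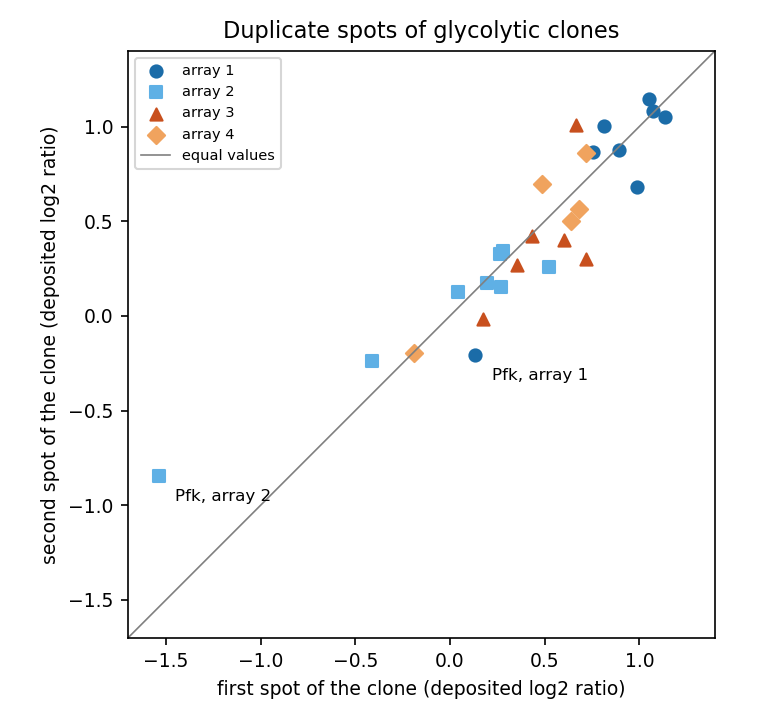
Deposited log2 ratios of the first spot (horizontal) and the second spot (vertical) of each glycolytic clone, 1 point per clone and array, with the line of equal values. Most points lie near the line; the Pfk point of array 2, at -1.538 and -0.844, lies far from the others and off the line.

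**Figure D3:**
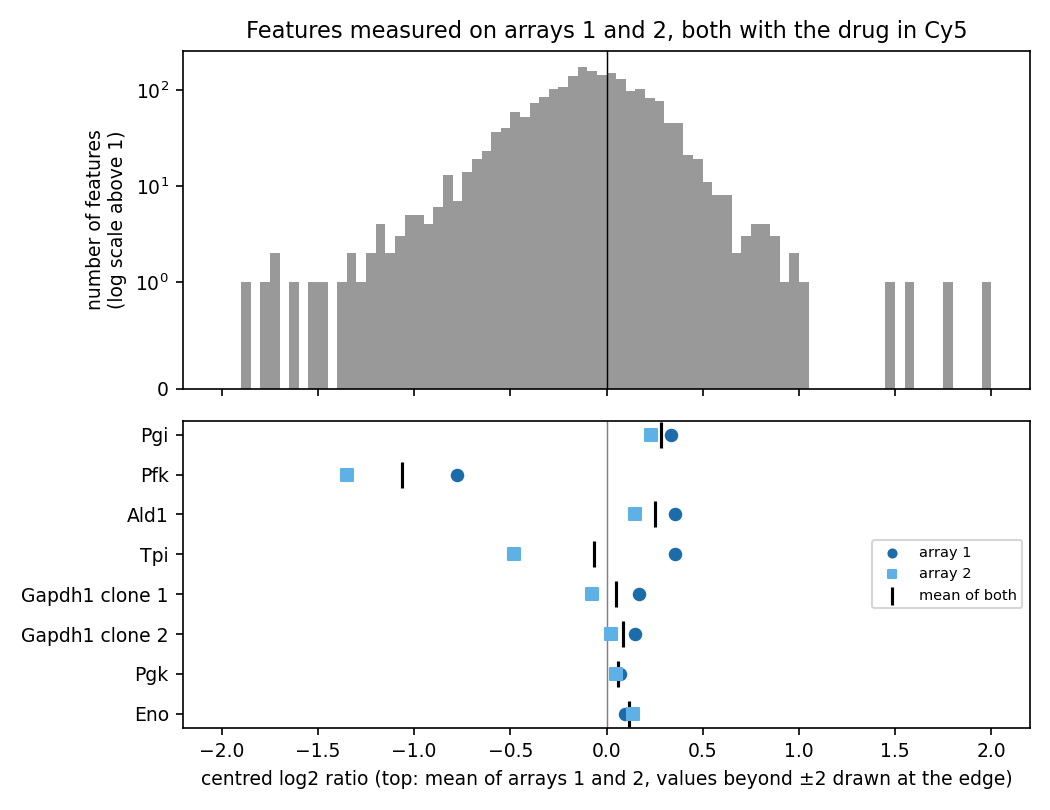
Top, histogram of the mean centred log2 ratio of arrays 1 and 2 for the 2116 clones measured on both, with a count axis that is logarithmic above 1. Bottom, the 8 glycolytic clones on the same horizontal axis, with 1 point per array and a tick for the mean; Pfk, at -1.06, lies in the left tail, and the other means lie between -0.065 and 0.28.

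Ald1, the aldolase that cuts fructose bisphosphate into trioses, had centred ratios of 0.36, 0.15, -0.19 and -0.16 on arrays 1 to 4. The arrays with the drug in Cy5 were both positive and those with the drug in Cy3 both negative. The mean was 0.041 ± 0.26 (SD, n = 4), with a 95% interval from -0.26 to 0.34 and a limma adjusted p of 0.934. With no column turned all 4 arrays were positive, at 0.36, 0.15, 0.19 and 0.16, and the mean was 0.21 ± 0.098 (SD, n = 4, limma adjusted p = 0.693). In a limma fit of drug and dye together, the dye effect of Ald1 was 0.21 and did not pass (unadjusted p = 0.0718, adjusted p = 0.397). The spots of Ald1 were close together, no more than 0.139 apart on any array.

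Tpi, the triose phosphate isomerase, varied most among the glycolytic clones measured on every array. Its ratios were 0.35, -0.48, 0.16 and 0.82 on arrays 1 to 4, so that array 2 was negative and the others positive. The mean was 0.21 ± 0.54 (SD, n = 4), with a 95% interval from -0.22 to 0.64 and a limma adjusted p of 0.673. Its SD was larger than that of 96.7% of the 366 features measured on all 4 arrays, whose median SD was 0.25. The duplicate spots of Tpi were at most 0.189 apart, less than the differences between its arrays. With no column turned its mean was -0.28 ± 0.50 (SD, n = 4, limma adjusted p = 0.771).

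The later steps were covered by 3 enzymes. Gapdh1 encodes a glyceraldehyde phosphate dehydrogenase, the enzyme that oxidises the triose and makes NADH. It had 2 clones with values on all 4 arrays. The first had ratios of 0.17, -0.073, -0.60 and 0.064 on arrays 1 to 4. Array 3 was far below the others, and the mean was -0.11 ± 0.34 (SD, n = 4, 95% interval from -0.44 to 0.22, limma adjusted p = 0.824). Without array 3 the mean of this clone was 0.053.

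The second Gapdh1 clone had ratios of 0.15, 0.025, -0.072 and 0.0095, which stayed near 0 on every array. Its mean was 0.027 ± 0.090 (SD, n = 4), with a 95% interval from -0.23 to 0.29 and a limma adjusted p of 0.946. Only 14 of the 366 features measured on all 4 arrays had a smaller SD. The clones of Gapdh1 differed by 0.023, -0.098, -0.53 and 0.054 on arrays 1 to 4, so they were close on every array except array 3. The mean difference was -0.14 ± 0.27 (SD, n = 4) with an exact two-sided sign-flip permutation p of 0.5, where 4 arrays cannot give less than 0.125. On array 3 the spots of the first clone read 0.664 and 1.007 as deposited, and those of the second clone 0.354 and 0.267. Gapdh2 encodes a close relative of the same enzyme, and binding of its transcripts to the Gapdh1 clones was not tested.

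Pgk, the phosphoglycerate kinase of the step that first makes ATP, had ratios of 0.072, 0.052 and -0.27 on arrays 1 to 3 and no value on array 4. Arrays 1 and 2 were close and array 3 was lower. The mean was -0.049 ± 0.19 (SD, n = 3), with a 95% interval from -0.39 to 0.29 and a limma adjusted p of 0.931. On array 3 its spots were 0.417 apart, and 12.7% of clones on that array were at least as far apart.

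Eno, the enolase of the step before pyruvate kinase, had the mean nearest to 0 among the tested glycolytic clones when the swapped columns were turned. Its ratios were 0.094, 0.14, -0.26 and 0.041 on arrays 1 to 4, with array 3 again the only negative one. The mean was 0.0017 ± 0.18 (SD, n = 4), with a 95% interval from -0.28 to 0.28 and a limma adjusted p of 0.998. On a linear scale this interval runs from 0.826 to 1.21. Of the features on all 4 arrays, 1.1% had a smaller absolute mean. The mean of Eno was 0.11 with no column turned, and the second Gapdh1 clone, at 0.058, was then nearest to 0.

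The signs of the tested clones differed between arrays. On array 1 all 6 tested glycolytic clones were above 0, with a median of 0.16. On array 3 5 of 6 were below 0, with a median of -0.23, and Tpi was the exception. On arrays 2 and 4 the medians were 0.038 and 0.041, with 4 of 6 and 4 of 5 clones above 0. Signs on arrays 3 and 4 were the reverse with no column turned. On array 3 the 5 clones other than Tpi were then above 0, and on array 4 Ald1 alone was. By the centring, 49.9% of all tested features were above 0 on each array. These counts are given without a test, since clones of a single array share its labelling and hybridisation.

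The order of the tested clones by mean ratio was Tpi, Ald1, the second Gapdh1 clone, Eno, Pgk and the first Gapdh1 clone. Every 95% interval held 0, and each neighbouring pair in this order differed by less than the SD over arrays of either clone. Without turning, the order was Ald1, the first Gapdh1 clone, Pgk, Eno, the second Gapdh1 clone and Tpi, so that Tpi went from the highest to the lowest place.

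**Figure D4:**
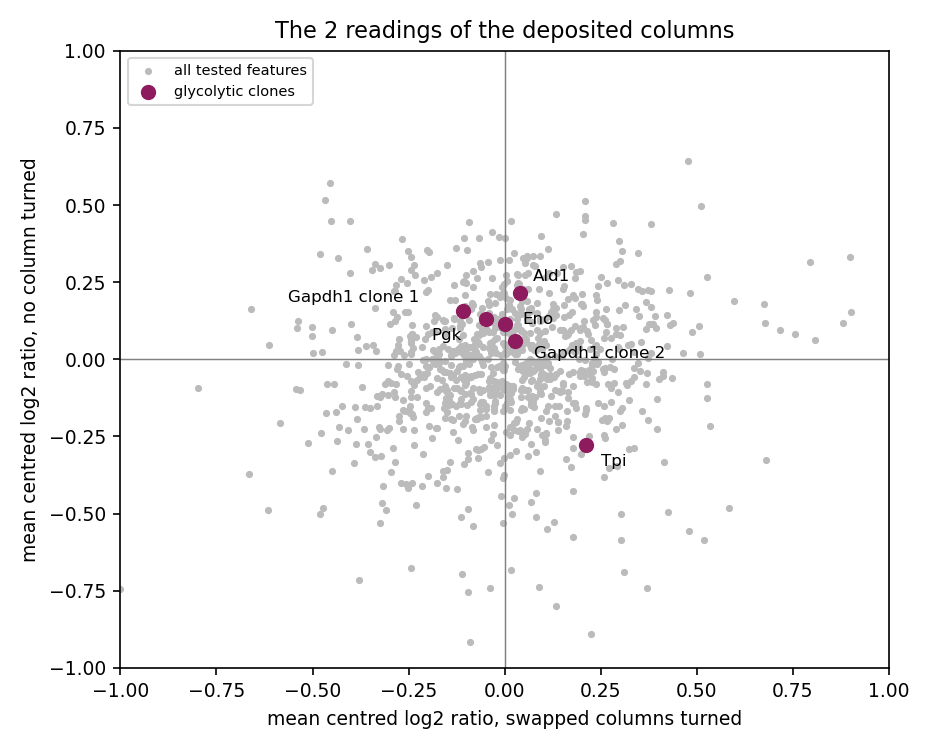
Mean centred log2 ratio of the tested features with the swapped columns turned (horizontal) and with no column turned (vertical), with glycolytic clones in dark red. Of the 980 features 9 lie outside the plotted range, and the 6 glycolytic clones lie within 0.28 of 0 on both axes.

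With no column turned, 5 of the 6 tested glycolytic clones were above 0 and Tpi was below. Their median was then 0.12, beside -0.013 for all tested features. None passed limma's test (adjusted p from 0.693 to 0.951), and 0 had an unadjusted p under 0.05. Under that reading 0 of 980 features passed, which is 0%, and 86 had such an unadjusted p. Pfk and Pgi had values on arrays 1 and 2 alone, so turning did not touch them.

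For each glycolytic clone measured on all 4 arrays, the 3 nearest features were found by Euclidean distance over these arrays. They were taken from 182 or 183 named features measured on all of them, without the other clone of the same gene. Glycolytic clones were few among these features. That no other glycolytic enzyme was among the 3 nearest therefore says little about how alike these clones were. For Ald1 these were Jon66Cii at a distance of 0.102, ATPsynB at 0.143 and CG9775 at 0.171. For Eno they were CG31781 at 0.199, crc at 0.221 and AcCoAS at 0.228. CG31781 was also the nearest to the second Gapdh1 clone, at 0.134, followed by ATPsynB at 0.210 and rtp at 0.220. The first Gapdh1 clone was nearest to GatA at 0.233, mew at 0.258 and Rtnl1 at 0.320. Tpi had no near neighbour, with AdipoR at 0.481, RpS15Ab at 0.503 and Spase22-23 at 0.534. With 4 points per gene such distances describe these arrays and nothing more.

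Genes next to glycolysis were taken from 7 lists of carbohydrate metabolism that held 59 genes, of which 35 were on the array and 8 were tested, with 9 clones. In limma's test 0 of these 9 clones passed in either direction, against the 1.43% above, and 3 had an unadjusted p under 0.05, beside 12.1% of all tested features. Their means were above 0 in 7 clones and below 0 in 2, with a median of 0.21. Without turning, 5 were above 0 and 4 below, with a median of 0.017.

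Sugar entry was represented by Hex-A, a hexokinase, at -0.059 ± 0.030 (SD, n = 3) and Treh, the trehalase that frees glucose from the blood sugar of the fly, at -0.17 ± 0.070 (SD, n = 3). Both were negative on each of their 3 arrays, and neither passed (limma adjusted p = 0.907 and 0.647). With no column turned their means were -0.0077 and -0.0955, and the swapped array of each was then positive. UGP, which makes the UDP-glucose used for glycogen, had clones at 0.33 ± 0.20 (SD, n = 4) and 0.21 ± 0.26 (SD, n = 4), with limma adjusted p of 0.337 and 0.532. The UGP clones were at 0.048 and -0.0028 with no column turned.

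After pyruvate, Mpc1, a subunit of the carrier that takes pyruvate into mitochondria, was at 0.34 ± 0.52 (SD, n = 3), with 0.93 on array 3 against 0.12 and -0.045 on arrays 1 and 2. Its mean was -0.29 with no column turned. SdhB, a subunit of succinate dehydrogenase, was at 0.17 ± 0.18 (SD, n = 3) and the malate dehydrogenase Mdh1 at 0.12 ± 0.23 (SD, n = 4). Their means were 0.20 and 0.10 with no column turned. The limma adjusted p of Mpc1, SdhB and Mdh1, with turning, lay between 0.509 and 0.738. In the pentose phosphate branch, Taldo, the transaldolase, was at 0.51 ± 0.31 (SD, n = 3, limma adjusted p = 0.28) and CG8036 at 0.46 ± 0.34 (SD, n = 3, limma adjusted p = 0.33). Taldo had ratios of 0.79, 0.56 and 0.17 on arrays 2 to 4, and CG8036 had 0.73, 0.59 and 0.074. Both were positive on each of these arrays, and with no column turned their means were 0.017 and 0.022.

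**Figure D5:**
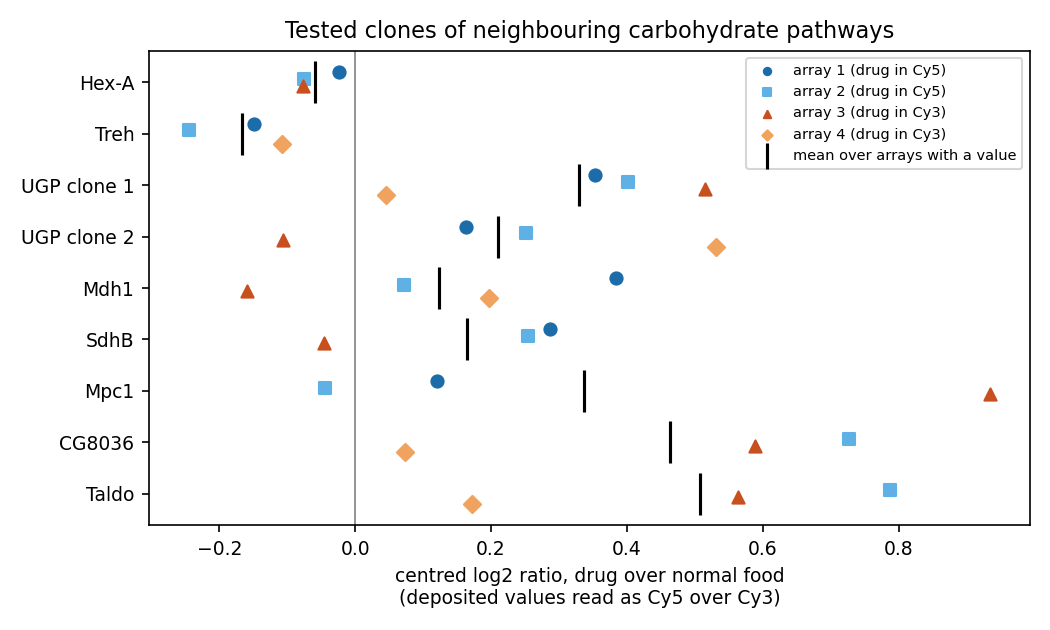
Centred log2 ratios of the 9 tested clones of neighbouring carbohydrate pathways, with 1 point per array and a black tick for the mean. Taldo and CG8036 lie to the right of 0 on each of their 3 arrays, while Hex-A and Treh lie to the left.

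Muscle holds much glycolytic enzyme, so its markers are given beside the values above. Of 20 muscle genes 3 were tested, with means of -0.43 for Act88F, -0.21 for Mlc2 and -0.13 for Act79B, and 0 passed limma's test. With no column turned all 3 means were above 0, from 0.039 to 0.33. Of the other marker lists, photoreceptor genes had a median of -0.29 (5 clones tested), neuronal genes 0.17 (3 clones: Sh, Sap47 and Rab3) and fat body 0.094 (2 clones of apolpp). The photoreceptor genes chp, inaD, inaC and trpl were below 0, from -0.45 to -0.28, while Arr1 was above 0, at 0.26. The medians of the photoreceptor, neuronal and fat body lists changed sign with no column turned, to 0.15, -0.039 and -0.090. The glial gene Gs2 was at -0.35, and at -0.16 with no column turned. None of these clones passed limma's test, and the part of cell composition in the glycolytic values was not tested.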

How the data were processed

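Heads were measured on 4 two-colour spotted cDNA arrays. Per the series' design text, slides were scanned at 10 µm and quantified with GenePix Pro 6.0, and ratios were normalized in Acuity 4.0, leaving out spots below 100 intensity units. The filters asked for signal-to-noise of 3 or more and a regression R2 of 0.6 or more. The deposited values are treated here as log2 ratios. They are described as ratio normalized per the labels, without a log base, numerator or centring. The genome build is not given in the sources used here, so no coordinates are printed.

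Neighbouring spots were averaged as 1 clone: gene names matched in all 7558 such pairs that had a single name each, but in 1 of 4656 pairs offset by a spot. Of 27648 spots, 15116 had 1 gene symbol, 102 several and 12430 none. Of those with 1, 14894 took a current symbol through the Entrez number in RefSeq's Release 6 table. No sequences are printed.

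Features present on 3 or more arrays were fitted with limma 3.58.1 in R 4.3.3 as a one-class comparison against 0, two-sided, with Benjamini-Hochberg adjustment over all of them and a threshold of 0.05. Centred intervals use the moderated variance. The fit was tested on simulated data with effects of 1 or 2 log2 units. It called all 86 and 114 features with these effects, and 19 of 780 features with none (2.4%). That share is of the features with no effect, and the share of false calls among all calls was higher. Simulated noise was independent between arrays, whereas measured arrays of the same labelling correlated at 0.525 and 0.42. The simulation therefore does not show how the fit behaves with such shared variation. Effects as small as the mean ratios of the tested glycolytic clones were not simulated. The 10 enzymes, the lists and centring as the main setting were chosen with earlier results of these data known. All members were named. From other lists, the named genes were those past the test or up to 4 tested genes with the largest absolute mean. Arr1 and all carbohydrate genes on fewer arrays were added after their values were seen. Array number limits the precision. Alternatives were no centring, no turning, both, an unmoderated test, a dye term, each array left out, other minimums of arrays, both spots required, another centring set, and clones averaged by gene.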

Additional observations from a re-analysis of the deposited data

How the results depend on the processing

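In limma's test 0 glycolytic clones and 0 genes of the carbohydrate lists passed under each of the 14 alternatives, with adjusted p of the tested glycolytic clones between 0.0781 and 0.998. The number of all features that passed, 14, became 5 with no centring, 0 with no column turned, 32 with neither, 0 in the unmoderated test and 28 with a dye term; with 1 array left out it was 5 to 23 (in array order 5, 23, 7 and 11). The glycolytic median moved to 0.53 with no column turned and no centring, where the median over all features was 0.40. Means that changed sign, none of them past the test, were as follows. With no column turned Tpi was at -0.28, the first Gapdh1 clone at 0.16 and Pgk at 0.13; without centring too, that Gapdh1 clone was at 0.60 and Pgk at 0.51. Turned but not centred, Pgk was at 0.17. The second Gapdh1 clone, averaged with the first, was at -0.039, and Eno was at -0.020 among features on all 4 arrays. With 1 array left out, Ald1 lay between -0.065 and 0.12, the first Gapdh1 clone between -0.20 and 0.053, the second between -0.013 and 0.060, Pgk between -0.11 and 0.062, and Eno between -0.043 and 0.090; Tpi stayed above 0, from 0.0097 to 0.45. The cause of these changes was not tested. Pfk was -1.35 on array 2 alone and -0.78 on array 1 alone. Requiring both spots left every tested feature as it was. Each ratio is already a pair of drug and control on the same array, so no further block was fitted. Signal over background was not analysed here.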

Other observations

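Genes of the carbohydrate lists with values on fewer than 3 arrays were outside the test, and their centred log2 ratios are given as they stand. Tps1, which makes trehalose, was at 0.97 on array 1 and -0.31 on array 2. Tret1-1, a trehalose transporter, was at -0.10 and -0.24 on the same arrays, and PCB, the pyruvate carboxylase, at -0.13 and -0.16. Gpdh1, of the glycerol phosphate branch, had a value on array 2 alone, at -0.40. Of the relatives of glycolytic enzymes, Pglym87 was at -0.059 on array 1 and 0.32 on array 4, CG7362 at 0.77 and -0.13 on the same arrays, and CG7069 at -0.28 on array 1. The remaining 7 genes had a value on array 1 alone. These were Pgm2a at 0.80, Scsalpha1 at 0.49, Pepck2 at 0.24, Idh3b at 0.19, Glys at -0.093, Ogdh at -0.18 and Rpe at -0.38. Duplicate spots of all clones correlated least on array 1, at 0.389 (Pearson), beside 0.61, 0.786 and 0.69 on arrays 2 to 4.

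Taldo and CG8036 had values on the same 3 arrays and lay within 0.1 of each other on each. How many other pairs of genes lay as close was not counted. The clones of Gapdh1, a single gene, also lay within 0.1 of each other on arrays 1, 2 and 4, but were 0.53 apart on array 3.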
